A study of Mus musculus with 6 samples.

Results

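Expression of 10 genes of the BCL2 family was compared between Control and Prmt1-null iGBs, which are splenic B cells driven into a germinal center–like state ex vivo. The members are 5 genes for proteins that protect cells from mitochondrial apoptosis (Bcl2, Bcl2l1, Mcl1, Bcl2a1b and Bcl2a1d), 3 genes for BH3-only death signals (Bcl2l11, Bid and Bad) and 2 genes for the pore-forming effectors (Bax and Bak1). They were taken by gene symbol from the count table, which holds 39017 genes, and all 10 had enough counts to be among the 18268 genes tested. Control iGBs came from Cg1-cre mice and Prmt1-null iGBs from Cg1-cre Prmt1f/f mice, so both genotypes carried the Cre, which is expressed from the Cγ1 locus once B cells are activated. All mice were C57BL6/J, with 2 females and 1 male per genotype, and each of the 6 libraries came from 1 of 3 mice per genotype. The ages were not given in the sources used here. Purified B cells of both genotypes were kept for 3.5 days with IL-4 (5 ng/ml per the labels, less per the methods) on 40LB cells, a fibroblast feeder line supplying CD40L and BAFF, and were separated from the feeders before total RNA was sequenced. The comparison asks whether the loss of Prmt1, the main asymmetric arginine methyltransferase, went with a change in the RNA of the genes that set the apoptotic threshold of these cells.

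Members of the BCL2 family meet at the outer mitochondrial membrane. The pro-survival proteins bind and hold the effectors BAX and BAK, the BH3-only proteins occupy the pro-survival proteins or activate the effectors, and freed effectors open the membrane to release cytochrome c, which starts the caspase cascade. Germinal center B cells are known for low BCL2 and a need for MCL1, CD40 signaling raises A1 (the protein of the Bcl2a1 genes) and BCL-XL (the protein of Bcl2l1) through NF-κB, and plasma cells depend on MCL1. Much of the control of this family acts on the proteins, through cleavage of BID, phosphorylation of BAD and rapid turnover of MCL1, and RNA counts do not report on it.

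The Bcl2a1 copies come first because their counts cannot be read gene by gene with the same trust as the others. The mouse genome carries near-identical copies of this gene on chromosome 9, and the first 60 coding bases of copies a, b and d, from the start codon, are shown here because they hold 6 of the 12 positions at which these 3 copies differ over their 519 coding bases. Sequences are from the GENCODE M21 transcripts (GRCm38, the mm10 build) and read 5′ to 3′, and capitals mark the positions that are not the same in all 3.
Bcl2a1a (plus strand, chr9:88957051-88957110): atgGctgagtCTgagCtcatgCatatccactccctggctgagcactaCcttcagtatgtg
Bcl2a1b (plus strand, chr9:89199360-89199419): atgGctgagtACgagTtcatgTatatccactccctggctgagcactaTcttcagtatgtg
Bcl2a1d (minus strand, chr9:88731660-88731719): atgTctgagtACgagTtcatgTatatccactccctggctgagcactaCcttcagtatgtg

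Over the coding sequence, Bcl2a1b and Bcl2a1d differed at 6 bases (98.8% identity), Bcl2a1a and Bcl2a1d at 7 (98.7%) and Bcl2a1a and Bcl2a1b at 11 (97.9%), with an identical run of 314 bases between a and d. Of all stretches of 50 bases in the Bcl2a1d transcript, 79.5% were found in another copy, against 57.6% for Bcl2a1b and 69.0% for Bcl2a1a. For stretches of 100 bases these shares were 54.7%, 31.1% and 43.5%. Bcl2a1c, with 387 coding bases in 1 exon, shared 10.4% of its stretches of 50 bases and 0% of those of 100. The authors kept reads with at most 2 locations and counted only the primary one, so a read from bases found in 2 copies may be counted on either of them, and a read from bases found in 3 may be lost. Bcl2a1b took 53.0% to 57.2% of the counts of the 4 copies over the 6 libraries, Bcl2a1d 23.5% to 26.9%, Bcl2a1a 16.3% to 20.7% and Bcl2a1c 0.56% to 1.07%.

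**Figure D1:**
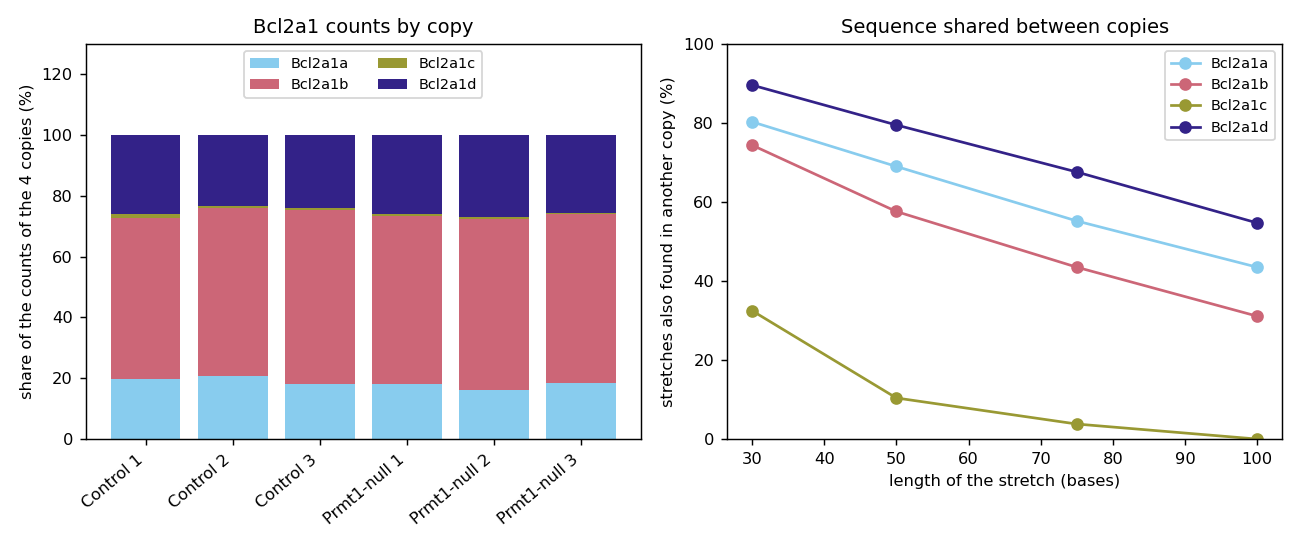
Left, the share of the counts of the Bcl2a1 copies (percent, stacked to 100) that fell on each copy in each of the 6 libraries. Right, the share of sequence stretches of each transcript (percent) also found in another copy, against the length of the stretch in bases; Bcl2a1d shared most (89.6% at 30 bases) and Bcl2a1c least (32.5%).

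The libraries held between 45343250 and 62774232 counted reads, with totals that overlapped between genotypes (exact permutation test, two-sided, p = 0.4). Prmt1 itself fell from 4242 ± 516 (SD, n = 3) to 1567 ± 154 (SD, n = 3) normalized counts (log2 fold change −1.44, SE 0.095, edgeR adjusted p = 1.11e-05), with no overlap between the groups, so every library matched its genotype label. B cell markers were high throughout, with Ms4a1 at 140210.0 ± 3414 (SD, n = 3) normalized counts in Control against 149539 ± 1172 in Prmt1-null iGBs (edgeR adjusted p = 0.480) and Pax5 at 11031 ± 652 against 10952 ± 580.4 (edgeR adjusted p = 0.965). The summed level of 7 plasma cell markers was higher in all 3 Prmt1-null libraries (70743 to 76568) than in all 3 Control libraries (63294 to 68780; exact permutation test, p = 0.1, the smallest that 3 against 3 allows). Of the 6 plasma cell markers tested, 5 had a log2 fold change above 0 and Jchain did not. Xbp1, a factor of the secretory program, had 18773 ± 299 (SD, n = 3) normalized counts in Control against 22985 ± 1894 in Prmt1-null iGBs without overlap (log2 fold change 0.29, SE 0.068, edgeR adjusted p = 0.0571), and it was past the threshold with DESeq2 and limma-voom. Log2 fold changes were 0.16 (edgeR adjusted p = 0.337) for Irf4, 0.28 (edgeR adjusted p = 0.384) for Prdm1 and 0.52 (edgeR adjusted p = 0.489) for Sdc1, which had 79.2 ± 12.6 against 114 ± 40.9 normalized counts, and Tnfrsf17 had at most 4 reads in any library. The 8 fibroblast markers, which would come from feeder cells, summed to 1460 to 1670 normalized counts in Control against 1629 to 1943 in Prmt1-null iGBs. Of the 7 fibroblast markers tested, 6 had a log2 fold change above 0, among them Col1a1 (356 ± 35.1 against 484 ± 58.9 normalized counts, edgeR adjusted p = 0.173) and Sparc (77.6 ± 12.9 against 121 ± 38.5, edgeR adjusted p = 0.360), both without overlap, while Postn was at 0 in all libraries. Summed levels were 1598 to 1809 in Control and 1736 to 1973 in Prmt1-null libraries for 7 T cell markers. Lck (1323 ± 71.5 against 1411 ± 64.6 normalized counts) and Cd5 (298 ± 6.69 against 398.9 ± 52.8) made up most of this sum. Cd3e had 24.8 ± 28.9 against 26.2 ± 9.72. The 7 myeloid markers summed to 494 to 1183 and 915 to 1022. Only Adgre1 among them was past the threshold (log2 fold change 0.73, SE 0.147, edgeR adjusted p = 0.0319). Of the 6 myeloid markers tested, 3 had a log2 fold change above 0, and S100a8, Lyz2 and Mpo had one below 0. The part of these other cells in the values of the BCL2 family was not tested.

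None of the 10 genes passed the quasi-likelihood test of edgeR between the genotypes at an adjusted p (Benjamini-Hochberg, over all genes tested) under 0.05 and more than 100 normalized counts on average. Against this count of 0 of 10, 1.18% of all genes passed, 0.58% with higher and 0.602% with lower expression in Prmt1-null iGBs. DESeq2's Wald test also put 0 of the 10 past this threshold, beside 5.14% of the 14018 genes to which it gave an adjusted p, and limma-voom 0 of the 10, beside 1.36% of all genes. At an unadjusted p under 0.05 there were 4, Bcl2a1d, Bid, Bcl2 and Bcl2l1, beside 13.5% of all genes. Bcl2 was the lower one, and the other 3 were higher in Prmt1-null iGBs, as were 6.5% of all genes at that p. All the differences were small, with log2 fold changes from −0.18 to 0.24 and a median of 0.12, against −0.001 over all genes tested. Of the 10, 8 had a log2 fold change above 0, beside 49.9% of all genes, and Bcl2 and Bcl2l11 were the other two. The groups did not overlap for 3 of them, Bcl2l1, Bcl2a1d and Bid, each higher in Prmt1-null iGBs, beside 9.95% of all genes without overlap in that direction, 9.92% in the other and 19.9% in either. For 9 of the 10, all but Bad, the 95% interval of the difference lay inside a fold change of 1.4 in either sense. In bulk RNA a smaller share of cells of a kind and less RNA per cell cannot be told apart, and these values are averages over all cells of a culture.

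**Figure D2:**
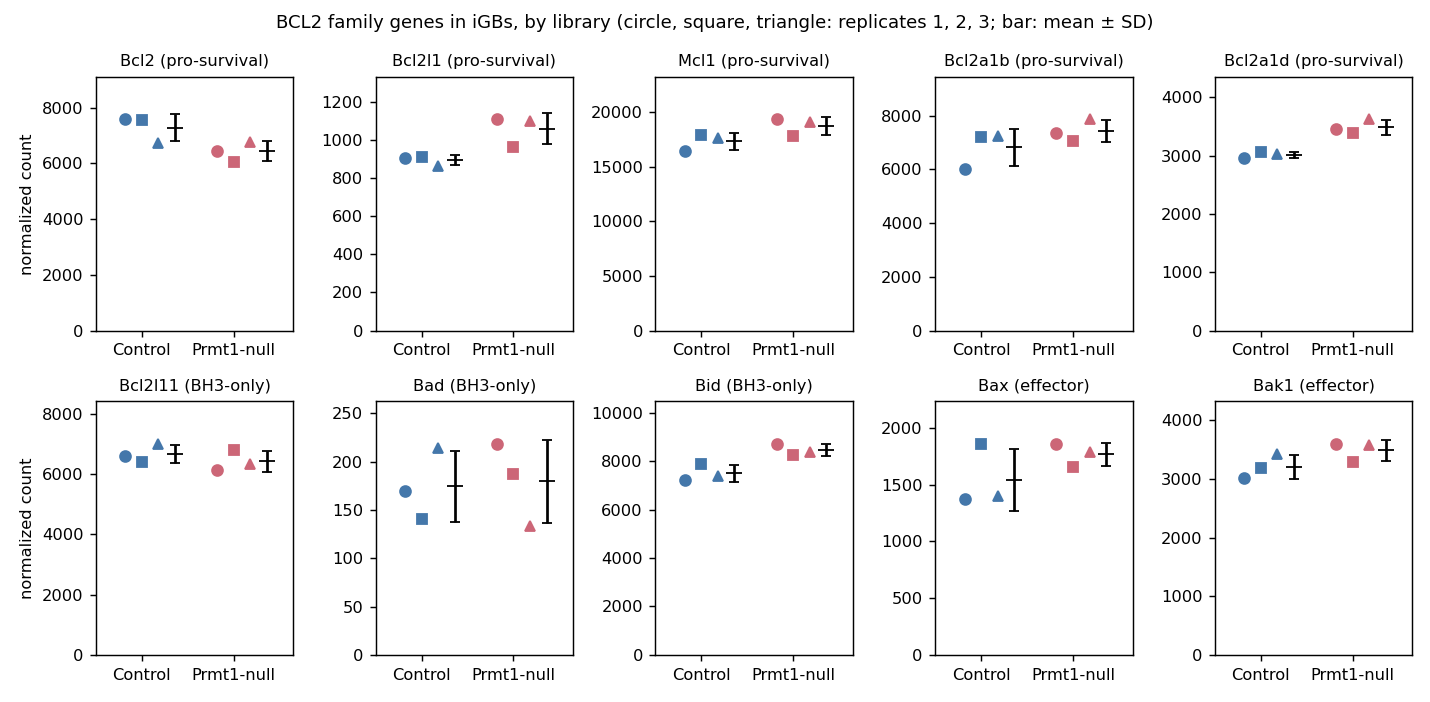
Normalized counts (from 0) of each of the 10 genes in the 3 Control and 3 Prmt1-null libraries, with the mean ± SD of each group beside the points. Bcl2l1, Bcl2a1d and Bid are higher in all 3 Prmt1-null libraries, and the groups overlap for the other 7.

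Among the 5 pro-survival members, Bcl2 was the only one with a lower mean in Prmt1-null iGBs. Bcl2 (ENSMUSG00000057329, minus strand, chr1:106538178-106714274 in mm10), the founding pro-survival gene of the family, had 7583, 7551 and 6738 normalized counts in Control against 6461, 6062 and 6775 in Prmt1-null libraries. Control replicates 1 and 2 were above all others, and the ranges met only where Prmt1-null replicate 3 exceeded Control replicate 3. The means were 7291 ± 479 and 6433 ± 357 (SD, n = 3 each), a log2 fold change of −0.18 (SE 0.066, 95% interval −0.32 to −0.04, unadjusted p = 0.0165, edgeR adjusted p = 0.229). An exon of D630008O14Rik lies on the opposite strand, and without a stated strand setting reads of the pair cannot be told apart.

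Bcl2l1 (ENSMUSG00000007659, minus strand, chr2:152780668-152831728), whose protein BCL-XL guards the same membrane, had the largest difference of the 10 with all 6 libraries. In edgeR fits with a library left out, Bax was ahead without Control replicate 2 and Bcl2a1d without Prmt1-null replicate 1. Bcl2 was ahead without Control replicate 3 or Prmt1-null replicate 3. The normalized counts of Bcl2l1 were 906, 909.6 and 864 in Control against 1108, 964 and 1101 in Prmt1-null libraries. All 3 Prmt1-null libraries were above all 3 Control libraries, although Prmt1-null replicate 2 was nearer to Control than to the other two of its group. The log2 fold change was 0.24 (SE 0.104, 95% interval 0.02 to 0.47, unadjusted p = 0.0353, edgeR adjusted p = 0.316).

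Mcl1 (ENSMUSG00000038612, plus strand, chr3:95658788-95663176), the short-lived pro-survival protein on which germinal center and plasma cells rely, had by far the most counts of the 10. It had 16417, 17853 and 17615 normalized counts in Control against 19315, 17764 and 19036 in Prmt1-null libraries. Prmt1-null replicate 2 fell inside the Control range, so the groups overlapped. With means of 17295 ± 769.8 and 18705 ± 827 (SD, n = 3 each), the log2 fold change was 0.11 (SE 0.063, 95% interval −0.02 to 0.25, edgeR adjusted p = 0.471), with an upper limit of 1.19-fold.

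The A1 copies gave 6013, 7191 and 7244 normalized counts in Control against 7347, 7065 and 7862 in Prmt1-null libraries for Bcl2a1b (ENSMUSG00000089929, plus strand, chr9:89199209-89207827). Control replicate 1 was the low library, and the other 5 lay between 7065 and 7862. Its log2 fold change was 0.12 (SE 0.075, 95% interval −0.04 to 0.29, edgeR adjusted p = 0.517), and 0.04 without Control replicate 1. Exons of Gm29094 overlap it on the same strand.

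Bcl2a1d (ENSMUSG00000096581, minus strand, chr9:88723285-88731914) had the smallest p of the 10. It had 2954, 3062 and 3025 normalized counts in Control against 3452, 3379.5 and 3621 in Prmt1-null libraries. The Control libraries varied little (coefficient of variation 1.83%), and every Prmt1-null library was above them. The means were 3013 ± 55.2 and 3484 ± 124 (SD, n = 3 each) and the log2 fold change was 0.21 (SE 0.063, 95% interval 0.07 to 0.34, unadjusted p = 0.0051, edgeR adjusted p = 0.136). Bcl2a1a, the copy that is not a member, had 2416 ± 242 and 2353 ± 283 normalized counts and a log2 fold change of −0.04 (SE 0.098, adjusted p = 0.903), with overlap between the groups.

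When the counts of the 4 copies were summed before the test, so that the choice of copy for a counted read no longer mattered, the totals were 11342, 13035 and 12659.9 in Control against 13295, 12581 and 14179 in Prmt1-null libraries. These ranges overlapped. The log2 fold change of the sum was 0.11 (SE 0.069, 95% interval −0.04 to 0.26, edgeR adjusted p = 0.519), smaller than that of Bcl2a1d alone, and the unadjusted p rose to 0.126.

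Of the BH3-only genes, Bid had higher counts in all Prmt1-null libraries and Bcl2l11 and Bad overlapped between the groups. Bid (ENSMUSG00000004446, minus strand, chr6:120891930-120916853), whose protein links death receptors to mitochondria once caspase-8 has cut it, had 7230.3, 7879 and 7378 normalized counts in Control against 8719, 8249 and 8369 in Prmt1-null libraries. The lowest Prmt1-null library was above the highest Control library. The means were 7496 ± 339.97 and 8445 ± 244 (SD, n = 3 each) and the log2 fold change 0.17 (SE 0.059, 95% interval 0.05 to 0.30, unadjusted p = 0.0115, edgeR adjusted p = 0.198). Its exons overlap those of Bcl2l13 on the opposite strand, which had a log2 fold change of 0.03 (SE 0.071, adjusted p = 0.901).

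Bcl2l11 (ENSMUSG00000027381, plus strand, chr2:128126038-128162547) encodes BIM, a BH3-only protein that kills B cells after cytokine signals fail. Its normalized counts were 6583, 6403 and 7006 in Control against 6126, 6798 and 6344 in Prmt1-null libraries, so the groups interleaved. The log2 fold change of −0.05 (SE 0.062, 95% interval −0.19 to 0.08, edgeR adjusted p = 0.775) had limits at a fold of 0.879 and 1.06.

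Bad (ENSMUSG00000024959, plus strand, chr19:6941861-6951899), kept inactive by survival kinases, was the least counted member. It had 170.1, 141 and 214 normalized counts in Control against 219, 187 and 133 in Prmt1-null libraries, and the highest and lowest libraries of both groups nearly coincided. The coefficients of variation were 21.1% and 24.0%, and the log2 fold change was 0.04 (SE 0.233, 95% interval −0.46 to 0.54, edgeR adjusted p = 0.960). This interval reached from a fold of 0.728 to 1.46, and differences within it were not excluded. An opposite-strand gene, Gpr137, overlaps its exons.

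The effectors had slightly higher means in Prmt1-null iGBs, with overlap between the groups. Bax (ENSMUSG00000003873, minus strand, chr7:45461697-45466898), a pore former and known p53 target, had 1372, 1860.4 and 1396 normalized counts in Control against 1857, 1657 and 1787 in Prmt1-null libraries. Control replicate 2 was the highest of all 6 libraries, while the other two Control libraries were the lowest. The log2 fold change was 0.19 (SE 0.115, 95% interval −0.05 to 0.44, edgeR adjusted p = 0.501), and it ranged from 0.12 (adjusted p = 0.754, without Control replicate 1) and 0.13 (adjusted p = 0.676, without Control replicate 3) to 0.35 (adjusted p = 0.193, without Control replicate 2) when a library was left out of the edgeR fit. Gm45808 overlaps its exons on the same strand.

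Bak1 (ENSMUSG00000057789, minus strand, chr17:27019810-27029009) encodes the effector BAK, which sits in the mitochondrial membrane of living cells. Its normalized counts were 3014, 3198 and 3424 in Control against 3604, 3285 and 3579 in Prmt1-null libraries. Prmt1-null replicate 2 lay within the Control range, and the log2 fold change was 0.12 (SE 0.07, 95% interval −0.03 to 0.27, edgeR adjusted p = 0.496). Exons of Ggnbp1 on the opposite strand overlap it.

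**Figure D3:**
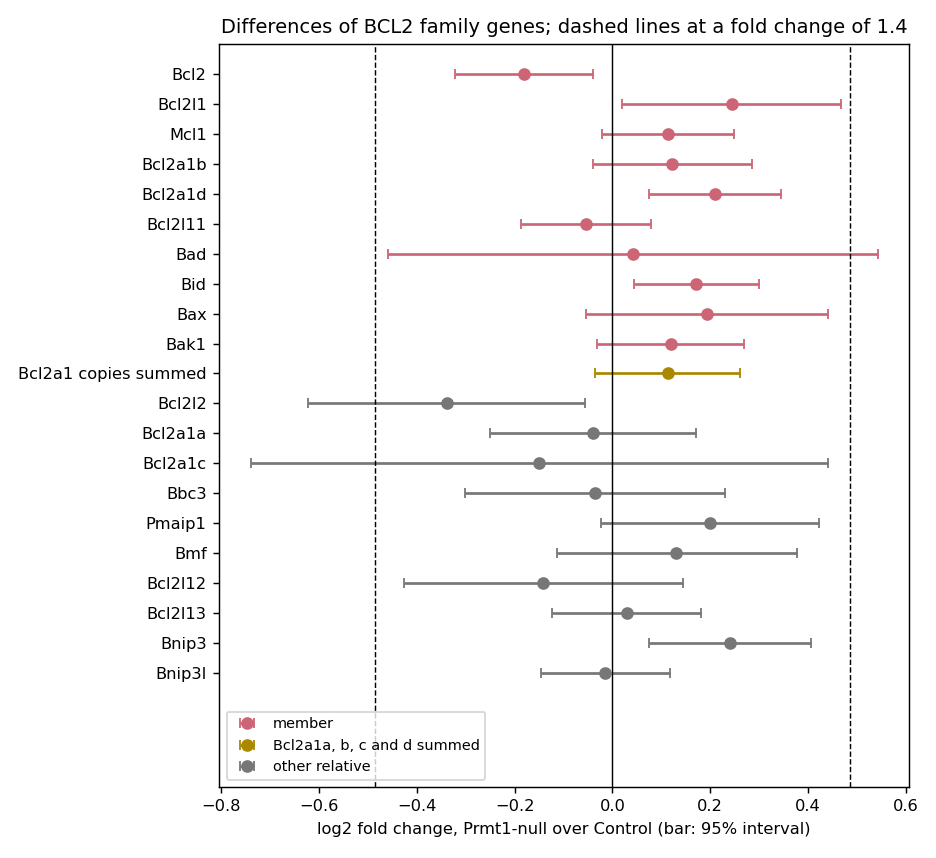
Log2 fold change of Prmt1-null over Control iGBs with its 95% interval for the 10 members, the Bcl2a1 copies summed and 10 relatives (Bcl2l14 and Bcl2l15, with few counts, are not drawn). Among the members, the interval of Bad alone crosses a dashed line at a fold change of 1.4, and the intervals of Bcl2, Bcl2l1, Bcl2a1d and Bid leave out 0.

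To set the genes against each other, counts were divided by the length of their merged exons and given as CPM (counts scaled to a fixed library total) per kilobase. In Control iGBs, Bcl2a1b was highest at 150 ± 15.4 (SD, n = 3) CPM per kilobase, followed by Mcl1 at 91.3 ± 4.06, Bcl2a1d at 63.0 ± 1.15, Bid at 38.1 ± 1.73, Bak1 at 24.1 ± 1.54, Bax at 17.7 ± 3.15, Bcl2l11 at 14.97 ± 0.696, Bcl2 at 14.4 ± 0.944, Bcl2l1 at 3.51 ± 0.1 and Bad at 1.23 ± 0.26. The libraries of neighbours in this order did not overlap except for Bax and Bcl2l11 and for Bcl2l11 and Bcl2. In Prmt1-null iGBs the order of the means was the same, at 163.9 ± 8.92 for Bcl2a1b, 98.7 ± 4.36 for Mcl1, 12.7 ± 0.704 for Bcl2 and 4.16 ± 0.319 for Bcl2l1. Bcl2 and Bcl2l11 exchanged ranks between libraries, with Bcl2 ahead in Control replicates 1 and 2 and behind in the other 4 libraries. Bcl2a1b was 46.6% ± 2.0 of the summed level of the 5 pro-survival genes in Control against 46.5% ± 0.7 in Prmt1-null iGBs. Mcl1 was 28.3% ± 0.5 of it in Control against 28.0% ± 0.8 in Prmt1-null iGBs, and Bcl2 was 4.5% ± 0.5 and 3.6%. These levels depend on which of the merged exons the cells use, which add up to 9157 bases for Bcl2 and 8029 for Bcl2l11 but 3418 for Mcl1, and those of the A1 copies carry the uncertainty described above.

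**Figure D4:**
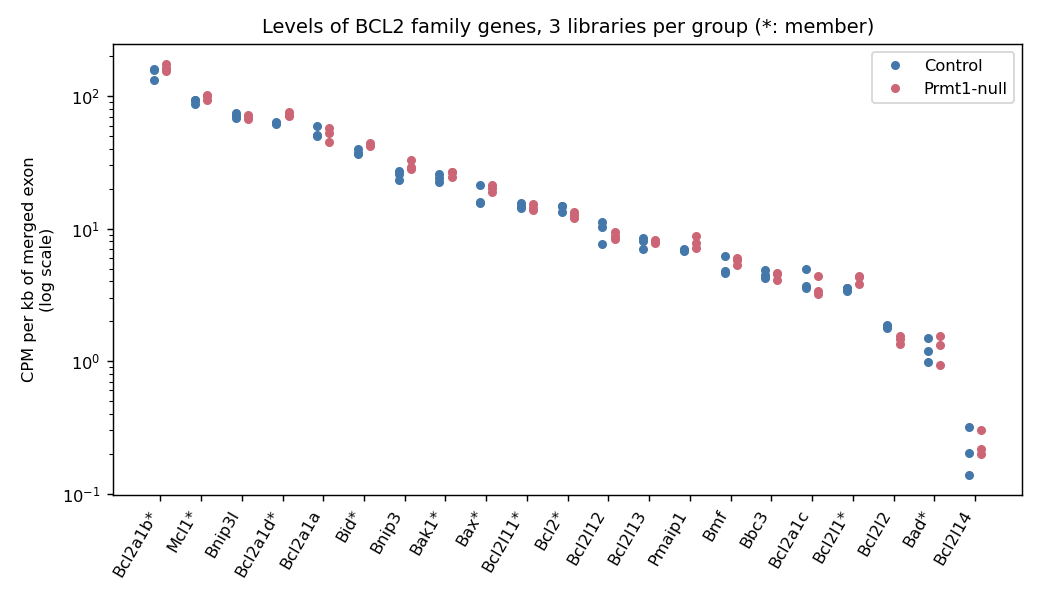
CPM per kilobase of merged exon (log axis) of the members and their better counted relatives in each library, in descending order of the Control mean, with members starred. Members run from Bcl2a1b (Control mean 150) down to Bad (1.23), and for each of them both groups lie close together on this axis.

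Of 16 further relatives, 12 had enough counts to be tested, and 0 passed the threshold (2 at an unadjusted p under 0.05, beside 13.5% of all genes, and 0 by DESeq2 or limma-voom). Their median log2 fold change was 0.01. Bnip3, a mitochondrial protein known for mitophagy, had 3214 ± 246 normalized counts in Control against 3797 ± 302 in Prmt1-null iGBs without overlap (log2 fold change 0.24, SE 0.077, edgeR adjusted p = 0.165). Bcl2l2, which encodes the pro-survival protein BCL-W, had 452.0, 467 and 442 normalized counts in Control against 364, 382 and 331 in Prmt1-null libraries. All Prmt1-null libraries were below all Control libraries, but with an edgeR adjusted p of 0.261 (log2 fold change −0.34, SE 0.132). Gm20521 overlaps its exons on the same strand.

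Of the other BH3-only genes, Pmaip1, Bbc3 and Bmf had enough counts to be tested and Bik and Hrk did not. Pmaip1, the gene of NOXA, which binds MCL1, had 1044 ± 13.2 normalized counts in Control against 1199 ± 121 in Prmt1-null iGBs, without overlap (log2 fold change 0.20, SE 0.104, edgeR adjusted p = 0.434). Bbc3, the gene of PUMA and like NOXA a p53 target, had a log2 fold change of −0.04 (SE 0.124, adjusted p = 0.930) and Bmf one of 0.13 (SE 0.114, adjusted p = 0.675). Bik and Hrk had at most 12 and 14 counts in any library, Bok at most 11, and Bcl2l10 had 0 in all of them, which at 3 counts allows up to 0.0662 CPM in the smallest library. Among the less canonical relatives, Bnip3l (−0.01, SE 0.061, adjusted p = 0.945), Bcl2l12 (−0.14, SE 0.133, adjusted p = 0.707), Bcl2a1c (−0.15, SE 0.275, adjusted p = 0.861), Bcl2l14 (0.12, SE 0.409, adjusted p = 0.931) and Bcl2l15 (0.81, SE 0.72, adjusted p = 0.684) had log2 fold changes whose 95% intervals held 0. Bcl2l12 lies at chr7:44991222-44998712, beside the deleted Prmt1 gene.

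Downstream of the mitochondria, the list of cytochrome c and other released factors, APAF1, caspases, inhibitors of apoptosis, nucleases and VDAC channels had 20 genes tested, of which 0 passed the threshold. At an unadjusted p under 0.05 there were 12 of the 20, beside 13.5% of all genes, and DESeq2 put 1 (Vdac2) and limma-voom 0 past the threshold. Of the 20, 13 had a log2 fold change above 0 and 7 below, with a median of 0.14. Vdac2, an outer membrane channel that holds BAK, had 3970.5 ± 347 normalized counts in Control against 4804 ± 290.2 in Prmt1-null iGBs (log2 fold change 0.27, SE 0.073, edgeR adjusted p = 0.094, without overlap). Apaf1, the scaffold that activates caspase-9, went the other way, from 4092 ± 284 to 3508 ± 181 normalized counts (log2 fold change −0.22, SE 0.069, adjusted p = 0.153, without overlap).

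In the death receptor arm, 0 of 11 genes passed the threshold, with 1 at an unadjusted p under 0.05 (13.5% of all genes), 1 by DESeq2, 0 by limma-voom and a median log2 fold change of 0.03. That gene was Casp8, the gene of the initiator caspase that cuts BID, with 8959, 7235 and 7095 normalized counts in Control against 6137, 6202 and 6642 in Prmt1-null libraries. Control replicate 1 was well above the rest, and all Control libraries were above all Prmt1-null libraries. Its log2 fold change was −0.30 (SE 0.082, 95% interval −0.47 to −0.12, edgeR adjusted p = 0.108). It passed the threshold with DESeq2 (adjusted p = 0.0208) and when sex was a covariate in edgeR (adjusted p = 0.039), but without Control replicate 1 the log2 fold change was −0.18 (adjusted p = 0.235). Fas, the death receptor of germinal center B cells, had a log2 fold change of 0.10 (SE 0.059, adjusted p = 0.510) and Tnfrsf10b, the mouse TRAIL receptor, one of 0.15 (SE 0.101, adjusted p = 0.572).

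Among 20 regulators of the family, such as NF-κB and FOXO factors, p53 and the ubiquitin enzymes of MCL1, 0 passed the threshold, with 3 at an unadjusted p under 0.05 (13.5% of all genes), 1 by DESeq2 (Atf4) and 0 by limma-voom, and a median log2 fold change of 0. Atf4, a stress factor, had 13252 ± 653 normalized counts in Control against 15578 ± 399 in Prmt1-null iGBs (log2 fold change 0.23, SE 0.061, edgeR adjusted p = 0.0865, without overlap). Foxo1, whose family can induce Bcl2l11, had a log2 fold change of −0.15 (SE 0.061, adjusted p = 0.301), and Rps6ka1, a kinase of BAD, one of 0.13 (SE 0.057, adjusted p = 0.336).

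**Figure D5:**
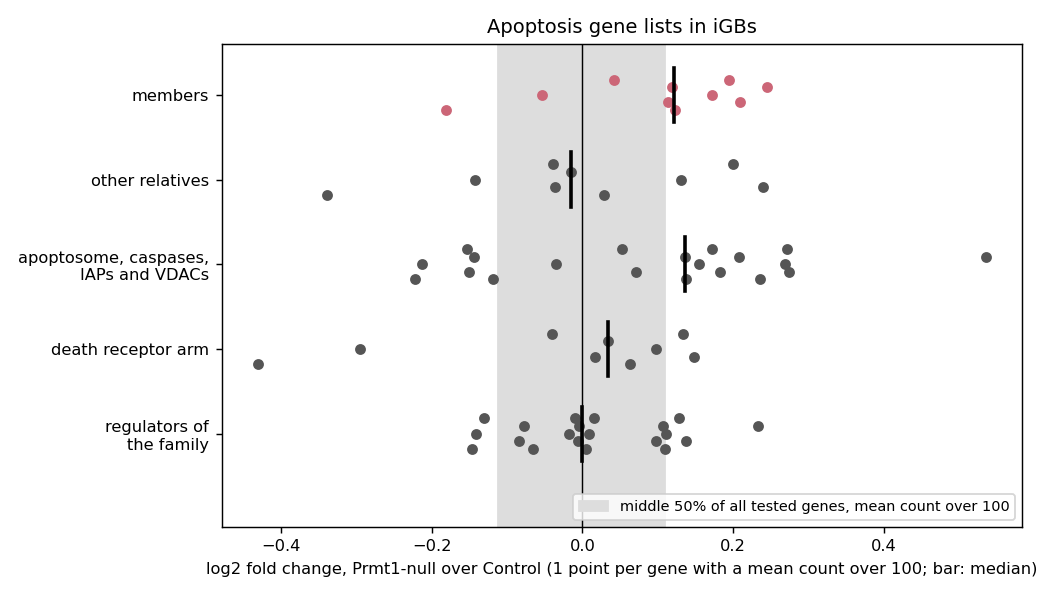
Log2 fold changes of the genes of 5 lists with a mean normalized count over 100 (1 point per gene, bars for the medians), over the middle 50% of all 13092 such genes (−0.11 to 0.11, shaded). The band shows the spread of single genes and is no measure for a list median; the medians are 0.12 for the members and 0.14 for the apoptosome list, beside 0.002 over all such genes.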

How the data were processed

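RNA from 3 Control and 3 Prmt1-null iGB cultures was sequenced. Before deposit, the authors ran Trimmomatic 0.32 to trim the reads, STAR 2.3.0e to place them on mm10, and counted primary alignments on exons of Ensembl genes with featureCounts 1.4.4 (versions also in the submitters' processing notes). The strand setting was not given in the sources used here. The authors deposited these counts raw, 1 row per gene. The members and gene lists were chosen with earlier results of these data known.

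Positions, exon lengths and overlaps came from GENCODE M21 (37607 genes matched by ID, 804 by symbol, 606 not matched). Genes of chromosome Y (398) were excluded, following the study. Genes passing filterByExpr (minimum count 10) were normalized by TMM (factors 0.985 to 1.013) and compared with the quasi-likelihood test of edgeR 4.0.16 in R 4.3.3, with Benjamini-Hochberg adjustment over 18268 genes. Normalized counts are counts scaled to the mean effective library size. SEs and 95% intervals, unadjusted for the number of genes, were derived from the quasi-likelihood statistic. DESeq2 1.42.0 and limma-voom 3.58.1 were alternatives. All were run on simulated data with planted differences larger than those of the members, which does not show how they handle smaller ones. Same-numbered libraries were not paired, since replicates 1 and 3 differed in sex between the genotypes. Deviations from group means also showed little correlation between same-numbered libraries (r = −0.075, 0.045 and −0.078). All members and all relatives were named, with Prmt1, and of each other pathway list the genes past the threshold and the 3 smallest p, except that some of these genes and markers are not reported here. Jchain and Adgre1 are listed in the table as Igj and Emr1. Intervals and floors do not cover PCR duplication, as reads carry no molecular identifiers.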

Additional observations from a re-analysis of the deposited data

How the results depend on the processing

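The 10 members were recomputed under 13 settings each (DESeq2, limma-voom, DESeq2's size factors, no filter on low counts, replicate block, sex as a covariate, chromosome Y genes kept, and each of the 6 libraries left out). Of these 130 values, 128 kept the direction and the side of the threshold, 0 passed it, and 2, both of Bad, changed sign. The lowest adjusted p of a member was 0.0609, for Bcl2a1d (up to 0.205 over its alternatives with all libraries and 0.401 with a library left out). The summed Bcl2a1 copies ranged from 0.11 to 0.12, and from 0.06 to 0.16 with a library left out. With a library left out, log2 fold changes crossed 0 for Bad (−0.119 to 0.216), Bbc3 (−0.074 to 0.023), Bcl2a1a (−0.123 to 0.056), Bcl2a1c (−0.291 to 0.016), Bcl2l13 (−0.044 to 0.09), Bcl2l14 (−0.115 to 0.484) and Bnip3l (−0.043 to 0.02). Without crossing 0, they ranged from 0.053 (without Control replicate 2) to 0.28 (without Control replicate 3) for Bmf, and over ranges of −0.286 to −0.029 for Bcl2l12, −0.09 to −0.015 for Bcl2l11, 0.079 to 0.168 for Bak1, 0.126 to 0.265 for Pmaip1, 0.318 to 1.533 for Bcl2l15 and 0.081 to 0.225 for Tnfrsf10b. Over all genes, 216 passed the threshold, 720 with DESeq2 and 675 with no filter on low counts; the cause was not tested. Leaving out a library gave 31 (Prmt1-null replicate 2) to 340 (Control replicate 3), and 128, 59, 51 and 77 without Control replicates 1 and 2 and Prmt1-null replicates 1 and 3. The replicate block gave 151 and changed no call of a member. Casp8 passed the threshold with DESeq2 (adjusted p = 0.0208), no filter (0.00246), sex as a covariate (0.039) and without Control replicate 3 (0.0406). DESeq2 gave no adjusted p for Bcl2l14 and Bcl2l15. Vdac2 and Atf4 passed with DESeq2 and no filter, and Bnip3 with no filter. No value of a BCL2 protein was measured.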

Other observations

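The ratios of Bcl2 to other members were chosen after the values had been seen, with Bcl2l1, Bcl2a1d and Bid taken as members that were higher in all Prmt1-null libraries, so that a lower ratio there follows from the choice and no test is given. The ratio of Bcl2 to Bcl2l1 normalized counts was 8.37, 8.3 and 7.8 in Control and 5.83, 6.29 and 6.15 in Prmt1-null libraries, a mean of 8.16 ± 0.31 (SD, n = 3) against 6.09 ± 0.23. The ratio of Bcl2 to Bcl2a1d was 2.42 ± 0.17 in Control against 1.85 ± 0.04 in Prmt1-null libraries, and that of Bcl2 to Bid 0.97 ± 0.07 and 0.76 ± 0.04. Against Bcl2l11, the gene with the other log2 fold change below 0, the ratio of Bcl2 overlapped between the groups (1.10 ± 0.12 and 1.00 ± 0.10). Summed per length, the 5 pro-survival genes came to 322.5 ± 20.0 CPM per kilobase in Control against 352.2 ± 15.7 in Prmt1-null libraries, the 3 BH3-only genes to 54.3 ± 1.4 and 58.6 ± 1.0, and the 2 effectors to 41.7 ± 3.5 and 46.4 ± 2.5. Within the BH3-only sum, Bid went from 38.1 to 42.9 CPM per kilobase, Bcl2l11 from 14.97 to 14.4 and Bad from 1.23 to 1.27.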
